A study of Mus musculus with 2 samples.

Results

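The genes described here are 10 messenger RNAs that the literature reports as direct targets of miR-200c or miR-141 and that act in cell movement, matrix or gene regulation: Msn, Fhod1, Ppm1f, Wasf3, Dlc1, Cfl2, Crtap, Ets1, Usp25 and Klf11. They were chosen by name, with earlier results of these data known, and all 10 were found among the 16906 genes of the deposited table. RNA came from luminal epithelial cells sorted by flow cytometry from mammary glands of C57BL/6 mice aged 8 weeks, about 20000 cells for a library, and was sequenced in bulk from a low-input preparation. The Ctrl library came from miR-200c/141-flox/flox mice and the CKO library from K8-CreERT2;miR-200c/141-flox/flox mice, where CreERT2 is a Cre recombinase switched on by tamoxifen and K8 stands for keratin 8, a gene of luminal cells. Both groups carried the floxed cluster and both received tamoxifen, so the CKO library differs from Ctrl by the Cre driver as well as by the deletion, and these cannot be told apart. The labels place the harvest 4 weeks after tamoxifen in one field and 3 days after it in another, and they do not state how many mice stand behind a library. There was 1 library per group. The spread between animals is therefore unknown for each difference below, and no test over samples was possible.

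MicroRNAs guide a silencing complex to messenger RNAs, mostly through pairing of the seed near their 5′ end with a match in the 3′ untranslated region (UTR), and the paired messenger is translated less and often degraded faster. The cluster that encodes miR-200c and miR-141 is abundant in epithelial cells, where the miR-200 family is known for holding back mesenchymal regulators and genes of the actin skeleton. Loss of a microRNA would be read, in data of this kind, as higher levels of messengers that it destabilises, while an effect on translation alone would leave no trace in RNA.

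The mature microRNAs are shown first because their seeds define every match described below (RefSeq, GRCm38.p6, chromosome 6, minus strand; capitals mark bases 2 to 8).
mmu-miR-200c-3p: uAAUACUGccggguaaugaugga
mmu-miR-141-3p: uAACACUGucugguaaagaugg
The seeds differ at 1 base, so that miR-200c-3p pairs with CAGTATT and miR-141-3p with CAGTGTT. Each 7-mer was sought on the transcribed strand of the longest annotated 3′ UTR (GENCODE M21, GRCm38), and a match followed by an A is called an 8-mer. Since the 7-mers differ, no match counts for both microRNAs.

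All 10 genes held at least 1 match, 24 in all: 19 for miR-200c-3p in 9 genes and 5 for miR-141-3p in 3 genes. Of the 19, 10 were 8-mers. Among the 11442 measured genes with a 3′ UTR, 29.9% held a match to either microRNA, 15.3% to miR-200c-3p and 20.7% to miR-141-3p. Seed matches are part of how such targets are found and reported, so this richness belongs to the choice of genes and is no result of these libraries. The matches chosen for print are those of the genes on which the later comparisons turn, each with 15 bases before the 7-mer and 1 after it, 5′ to 3′, the 7-mer in capitals.
Crtap, 8-mer, minus strand, chr9:114375188-114375210: tccctgaagaaaaatCAGTATTa
Fhod1, 7-mer, minus strand, chr8:105329289-105329311: cttatacccagaaacCAGTATTg
Fhod1, 8-mer, minus strand, chr8:105329277-105329299: aaccagtattgtgaaCAGTATTa
Cfl2, 8-mer, minus strand, chr12:54860748-54860770: atgggagacttgtttCAGTATTa
Ppm1f, 8-mer, plus strand, chr16:16924815-16924837: tcgtggagacatttgCAGTATTa
Dlc1, 8-mer, minus strand, chr8:36568870-36568892: aggatcgactcgagaCAGTATTa
Msn, 8-mer, plus strand, chrX:96167901-96167923: tcttttaatttttacCAGTATTa
Msn, 8-mer, plus strand, chrX:96168092-96168114: tatgtaagaagatttCAGTATTa
Ets1, 7-mer, plus strand, chr9:32755047-32755069: gtggtctcagtattgCAGTATTg
Usp25, 7-mer, plus strand, chr16:77115812-77115834: tgctgccttctattgCAGTATTg
Klf11, 7-mer of miR-141-3p, plus strand, chr12:24662349-24662371: aggactttatctgacCAGTGTTg
Every one of these matches lies in the last exon of its transcript. The printed Fhod1 8-mer holds the other Fhod1 7-mer in its lower-case part, and the printed Ets1 match likewise holds its neighbour.

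The genes differ widely in how much 3′ UTR surrounds their matches. The Fhod1 3′ UTR is 234 bases long and carries both its matches, which start 101 and 113 bases after the stop codon. That of Crtap is 395 bases long with matches at 150 and 334. At the other end, the Ets1 3′ UTR of 3395 bases has 3 miR-200c-3p matches within a short stretch, at 578, 629 and 637, all 7-mers. The Wasf3 3′ UTR of 3238 bases has matches at 229, 2849 and 3109, and that of Ppm1f, 3342 bases long, at 672 and 808. Dlc1 was the richest, with 2 matches for miR-200c-3p and 3 for miR-141-3p in 2532 bases. Cfl2 had 2 and 1 in 2308 bases. Msn had 2 matches in 1918 bases, both 8-mers, and Usp25 had 1 in 1218. Klf11 alone had no miR-200c-3p 7-mer in its 2326 bases, and its single match was for miR-141-3p. Longer 3′ UTRs hold matches more often: 10.6% of measured genes with a 3′ UTR under 1000 bases had a match to either, against 67.6% of those with 3000 bases or more. By that measure the 2 short 3′ UTRs of Fhod1 and Crtap stand in a class where a match is uncommon.

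**Figure D1:**
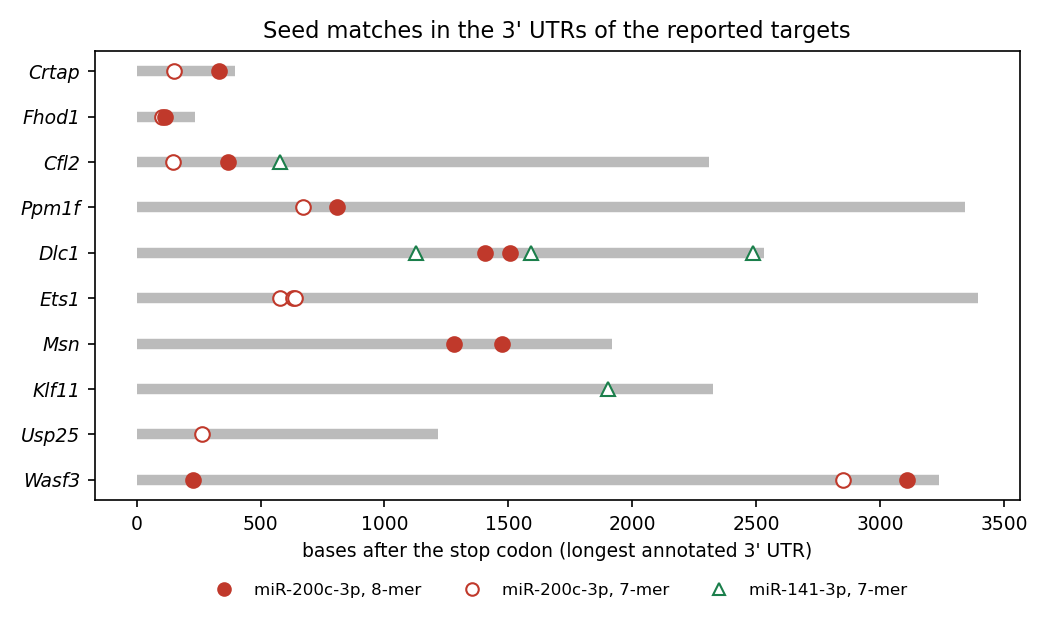
Position of each seed match (x axis, bases after the stop codon in the longest annotated 3′ UTR) for the 10 genes, with grey bars for the length of the 3′ UTR, circles for miR-200c-3p (filled for 8-mers) and triangles for miR-141-3p. Fhod1 and Crtap hold 2 matches each in 234 and 395 bases, and the 3 matches of Ets1 lie close together.

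Levels are given in FPKM (fragments divided by transcript length and by the size of the library), which allows genes to be set beside each other. The estimated depth, from the deposited p-values, was about 12600000 reads in Ctrl and 11500000 in CKO. In Ctrl the order was Msn at 56.48 FPKM, Ets1 at 46.84, Usp25 at 43.02, Klf11 at 31.13, Cfl2 at 18.55, Fhod1 at 9.16, Crtap at 7.57, Ppm1f at 5.56, Dlc1 at 2.12 and Wasf3 at 0.54. The CKO library had the same order. Neighbours in that order were apart by more than counting error in Ctrl, with the smallest ratio for Ets1 over Usp25, 1.09 (95% interval 1.03 to 1.15), and the interval nearest to 1 for Fhod1 over Crtap, 1.21 (1.01 to 1.45). In CKO the same pair could not be separated, at a ratio of 1.08 (0.92 to 1.28). In Ctrl, Msn, Ets1, Usp25 and Klf11 each stood above at least 84.6% of the 16906 genes, while Dlc1 stood above 37.9% and Wasf3 above 25.5%.

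**Figure D2:**
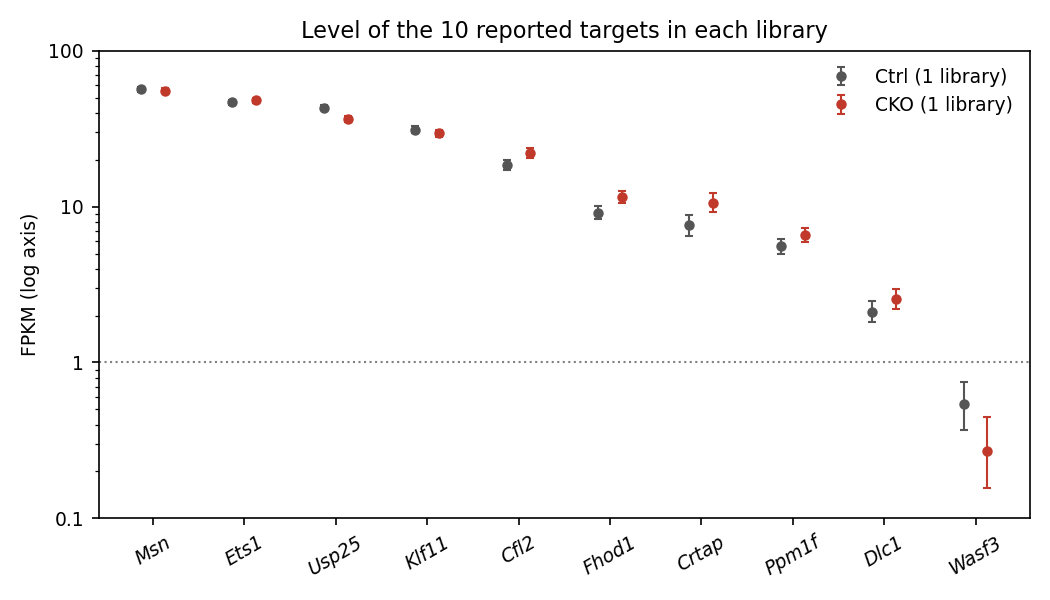
FPKM (log axis) of the 10 genes in the Ctrl library (grey) and the CKO library (red), with 95% Poisson intervals of the estimated reads that cover counting error only; the dotted line marks 1 FPKM. Levels run from 56.48 FPKM for Msn to 0.54 for Wasf3 in Ctrl, and the intervals of the 2 libraries are apart for Usp25, Cfl2, Fhod1 and Crtap.

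None of the 9 measured genes differed by 1.5-fold between the libraries. Crtap, Fhod1, Cfl2 and Ppm1f were higher in CKO by 1.19-fold to 1.40-fold, beyond counting error. Usp25 was lower by 15.4%, also beyond counting error, and Msn, Ets1, Klf11 and Dlc1 were within it. Genes averaging 1 FPKM or more over the libraries are called measured, a level that Wasf3 alone of the 10 missed. Higher or lower meant 1.5-fold or more on the scale of FPKM plus 0.5, and a 95% interval of the ratio of reads (exact binomial, Clopper-Pearson) that excluded 1. That rule was met by 0 members in either direction, where 2.28% of the 11667 measured genes were higher and 3.03% lower. By the interval alone, a rule added after the values were seen, 4 of the 9 were higher and 1 lower, where 16.5% of all measured genes were higher and 23.7% lower. The median log2 ratio of the 9, CKO over Ctrl, was 0.22, against -0.03 for all measured genes. Of the 9 ratios 6 were above 0, where 5231 of the 11667 measured genes were. With 9 genes chosen by name these are descriptions and not tests.

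**Figure D3:**
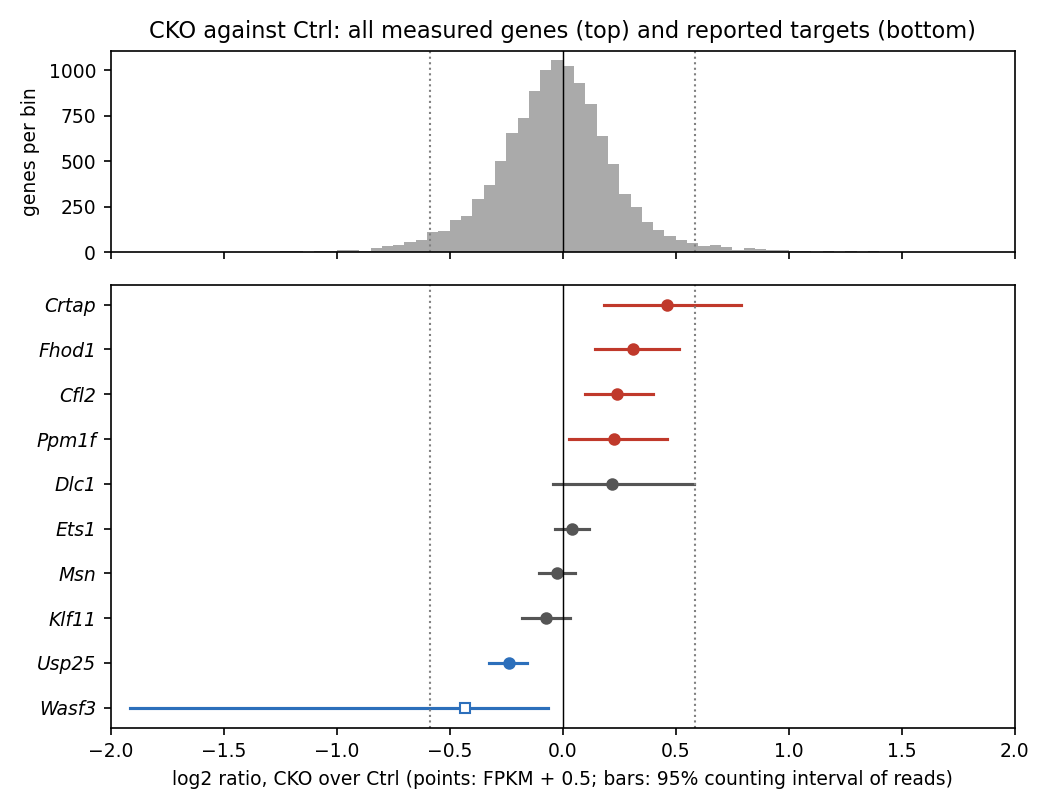
Top, number of measured genes per bin of log2 ratio, CKO over Ctrl; bottom, the 10 genes with their log2 ratio (points, FPKM plus 0.5; the open square is Wasf3, below the minimum) and 95% counting interval, red where it lies above 0 and blue where it lies below. All 10 points lie between the dotted lines at 1.5-fold.

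Crtap encodes cartilage-associated protein, a partner in the complex that modifies prolines of collagen in the endoplasmic reticulum. It stood at 7.57 FPKM in Ctrl against 10.62 in CKO, from about 163 and 209 reads. Its log2 ratio of 0.46 (counting interval 0.18 to 0.79) was the highest of the set and above 96.1% of measured genes. Crtap (Entrez gene 56693, chromosome 9 at 114375134 to 114390675) was the one member to pass a looser minimum, 0.32 on the log2 scale, which 6.33% of measured genes passed in that direction. The enzyme it partners, P3h1, was at 1.22 and 1.09 FPKM (log2 interval -0.81 to 0.47, which includes 0), and the third member of the complex, the prolyl isomerase gene Ppib, was at 152.72 and 175.34. P3h1 rested on only 49 and 40 reads. The log2 ratio of Ppib was 0.20 (0.11 to 0.29), and the intervals of Crtap, P3h1 and Ppib overlap. Among 12 other measured collagen-modifying enzymes and chaperones the median log2 ratio was -0.08. P4ha1, a prolyl hydroxylase subunit, was the one counted as lower, at 4.52 and 2.22 FPKM.

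Fhod1 and Ppm1f are often named together as actin regulators under miR-200c. Fhod1 encodes a formin, a protein that bundles and elongates actin filaments in stress fibres. It measured 9.16 FPKM in Ctrl against 11.5 in CKO (about 454 and 522 reads), which gives a log2 ratio of 0.31 (0.14 to 0.51). Of the 8 other measured formins, Fmnl2 was lower, at 8.1 and 4.7 FPKM, and 0 were higher. Their median log2 ratio was -0.21, on the opposite side from Fhod1. Fhod1 is 3951 bases long and several of the other formins are longer, up to 8481 bases. Measured genes of 4579 bases or more had a median of -0.15. The part of length in this contrast was not tested. Fhod3, the closest relative of Fhod1, was at 1.34 and 1.43 FPKM and held no match. Ppm1f encodes a phosphatase that acts on PAK kinases and on a calcium-dependent kinase. Ppm1f was at 5.56 and 6.59 FPKM (343 and 372 reads), or 0.23 on the log2 scale (0.03 to 0.46). That lower bound is close to 0. The related gene Ppm1e was scarcely present, at 0.1 and 0.03 FPKM. The 8 other measured genes of PAK kinases and their partners had a median of -0.11, and 0 of them reached 1.5-fold.

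Cfl2 encodes the muscle type of cofilin, which severs and recycles actin filaments. It measured 18.55 FPKM in Ctrl against 22.02 in CKO (692 and 752 reads), a log2 ratio of 0.24 (0.10 to 0.40). Luminal cells held far more of the other cofilin-type genes: Cfl1 was at 402.89 and 442.02 FPKM and the destrin gene Dstn at 332.35 and 344.6. Their log2 ratios, 0.13 and 0.05, were also above 0 beyond counting error, and neither 3′ UTR holds a match to either seed. Of 11 measured genes of the cofilin cycle, Cfl2 included, 6 intervals lay above 0 and 2 below. The shares over all measured genes were 16.5% above and 23.7% below. Without Cfl2 the median log2 ratio of the list was 0.06. One of the 2 below was the cofilin kinase gene Limk1, at 5.08 and 4.07 FPKM, or -0.29 on the log2 scale (-0.63 to -0.02).

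Dlc1 encodes a GTPase-activating protein that restrains the contraction of actin and myosin. It measured 2.12 FPKM in Ctrl against 2.55 in CKO (166 and 183 reads). The log2 ratio of 0.22 resembled that of Ppm1f, but its interval, -0.04 to 0.58, includes 0. Of its relatives, Stard13 was at 6.32 and 4.43 FPKM, or -0.47 on the log2 scale (-0.73 to -0.30), and its 3′ UTR also holds a miR-200c-3p match. Stard8 was below the minimum, at 0.72 and 1.04 FPKM.

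Wasf3 encodes WAVE3, an activator of the Arp2/3 complex that builds branched actin at the leading edge. Its level was the lowest of the 10, 0.54 FPKM in Ctrl against 0.27 in CKO, from about 34 and 16 reads. The FPKM ratio was 0.5, which becomes -0.43 on the log2 scale with 0.5 FPKM added to each value, and the interval of the read ratio, -1.92 to -0.06, lay below 0. The value was thus higher in Ctrl, for a gene with 3 miR-200c-3p matches, of which 2 are 8-mers. Wasf2 was the main member of this family in these cells, at 57.91 and 49.66 FPKM, with no match in 3882 bases of 3′ UTR, and Wasf1 was at 1.48 and 1.39. Of 17 measured genes of the WAVE and Arp2/3 complexes 0 passed 1.5-fold, and the median was -0.01.

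Msn encodes moesin, which ties actin to the cell membrane together with its relatives ezrin and radixin. It was the most abundant of the set and did not differ beyond counting error, at 56.48 FPKM in Ctrl against 55.49 in CKO (2722 and 2448 reads). The log2 ratio was -0.03 (-0.10 to 0.05), and counting error alone allows a level in CKO up to 1.04-fold higher or 1.08-fold lower. The Msn 3′ UTR carries 2 8-mers, whereas that of Ezr, at 272.6 and 268.63 FPKM, has no match, and that of Rdx, at 37.79 and 35.44, has 1 for miR-141-3p. The log2 ratios of Ezr and Rdx were -0.02 and -0.09.

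Of the regulators, Ets1 encodes a transcription factor of invasive and vessel-forming cells. It measured 46.84 FPKM in Ctrl against 48.16 in CKO (2962 and 2788 reads), a log2 ratio of 0.04 (-0.03 to 0.12). Ets2, with no match, was at 257.52 and 239.24 FPKM. Of 18 other measured ETS factor genes 0 passed 1.5-fold, and their median was -0.11. With Ets1 included, 2 of 19 intervals lay above 0 and 9 below, where 16.5% of all measured genes lay above and 23.7% below. Klf11 encodes a zinc finger repressor induced by TGF-beta. Klf11 was at 31.13 and 29.56 FPKM (1556 and 1352 reads), a log2 ratio of -0.07 (-0.18 to 0.03). Its relative Klf10, with 1 miR-200c-3p match, was at 40.8 and 49.01 FPKM, or 0.26 on the log2 scale (0.17 to 0.36). Klf3, another of the family, was counted as lower at 37.55 and 24.02 FPKM.

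Usp25, which encodes an enzyme that removes ubiquitin from proteins, was lower in CKO. It measured 43.02 FPKM in Ctrl against 36.39 in CKO (2566 and 1987 reads), a log2 ratio of -0.24 (-0.33 to -0.16). Only 19.2% of measured genes had a lower ratio. Usp28, its closest relative, was at 5.32 and 5.16 FPKM. The tankyrase genes Tnks and Tnks2, whose proteins Usp25 is reported to stabilise, had log2 ratios of -0.39 and -0.34. All 6 genes of that short list, Usp25 included, had a ratio below 0, with 0 past 1.5-fold. The intervals of 4 lay below 0, while those of Usp28 (-0.30 to 0.21) and Traf3 (-0.14 to 0.12) include 0. Of the 11667 measured genes, 6393 had a ratio below 0, and 23.7% had an interval below 0. Tnks and Tnks2 are 6444 and 6365 bases long, and measured genes of 4579 bases or more had a median of -0.15. A link between these ratios and Usp25 was not tested.

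**Figure D4:**
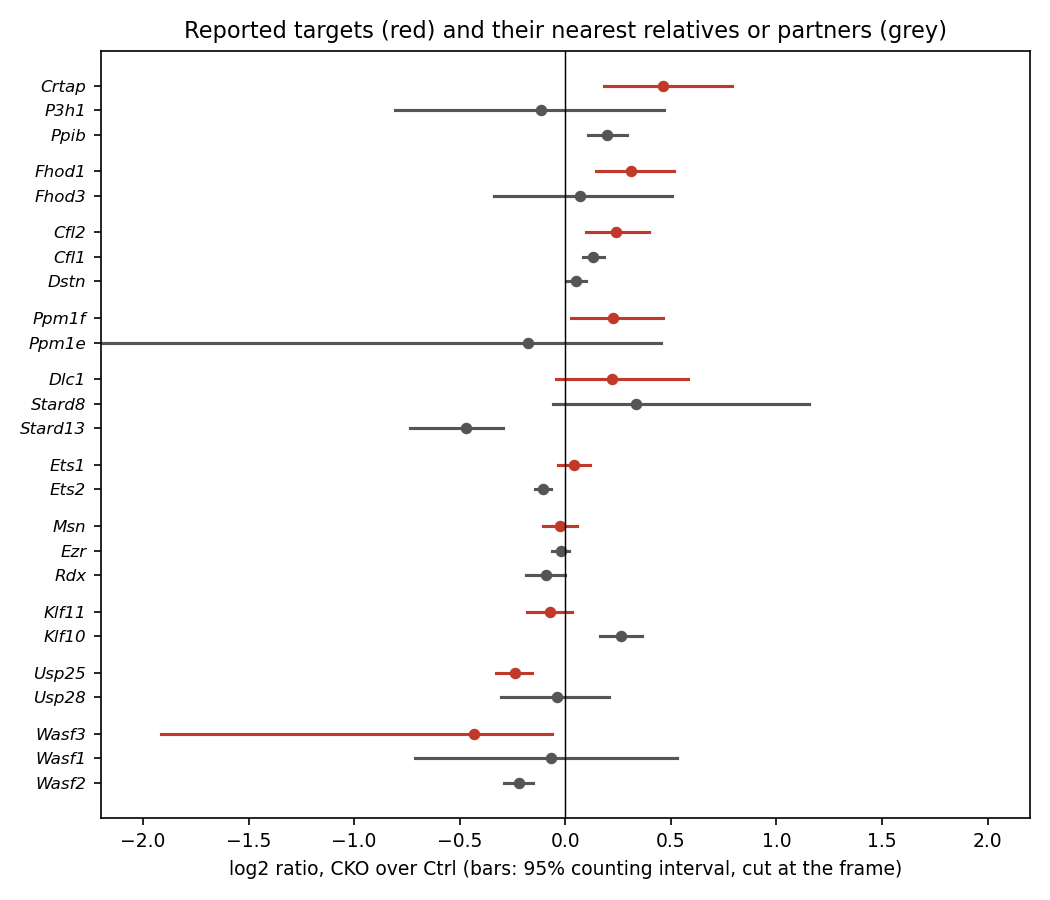
Log2 ratio, CKO over Ctrl, of the 10 genes (red) and of their nearest relatives or complex partners (grey), with 95% counting intervals that end at the frame where they are wider. The intervals of Crtap, Fhod1, Cfl2 and Ppm1f and of the relatives Klf10, Ppib, Cfl1 and Dstn lie above 0, while those of Usp25, Wasf3, Stard13, Wasf2, Ets2 and Rdx lie below it.

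The kind of match and the ratio were set side by side without a test, in classes formed after the values were seen. The 6 measured genes with a miR-200c-3p 8-mer (Crtap, Fhod1, Cfl2, Ppm1f, Dlc1 and Msn) had log2 ratios from -0.03 to 0.46, with 5 above 0. The 3 without one (Ets1, Klf11 and Usp25) had ratios from -0.24 to 0.04. Wasf3, below the minimum, has 8-mers and a ratio of -0.43, so it goes against that order. Outside the set, genes with the same kinds of match did not lie high. Without the members, the measured genes with a miR-200c-3p 8-mer had a median log2 ratio of -0.08, and 37.1% of them were above 0. Those with 2 or more miR-200c-3p matches had a median of -0.12 with 28.9% above 0, where 6 of the 7 measured members with as many matches were above 0. Genes with no match to either had a median of -0.01 with 48.5% above 0. That class has no 7-mer, but some of its genes hold the 6-mer of bases 2 to 7. Of the measured genes with a 3′ UTR, 53.9% hold that 6-mer for either microRNA, against 29.9% for the 7-mer. Genes with matches have long transcripts, and relative to genes of like length the medians of these classes, members included, were 0.01 for the 8-mer, 0.0041 for 2 or more matches and 0.0037 for no match.

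Transcript length moved with the ratio across the whole table. The median log2 ratio was 0.10 in the shortest of 5 parts of the measured genes (up to 1569 bases) and -0.15 in the longest (4579 bases or more). Most of the members are long, from 1714 bases for Crtap to 6239 for Dlc1. Against the median of the 500 genes nearest in length, an alternative added after the data were seen, Dlc1 stood 0.37 higher, Fhod1 0.37, Ppm1f 0.34, Cfl2 0.25 and Crtap 0.44. Ets1 stood 0.16 higher on that scale and Usp25 0.15 lower, and 7 of the 9 were above 0. The median of all measured genes on that scale was 0.0002, near 0 by construction. The intervals of Dlc1 (0.11 to 0.73) and Ets1 (0.08 to 0.23), which include 0 without this step, then lay above it. The median of the 9 became 0.25. The part of transcript length in the ratios was not tested beyond this.

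**Figure D5:**
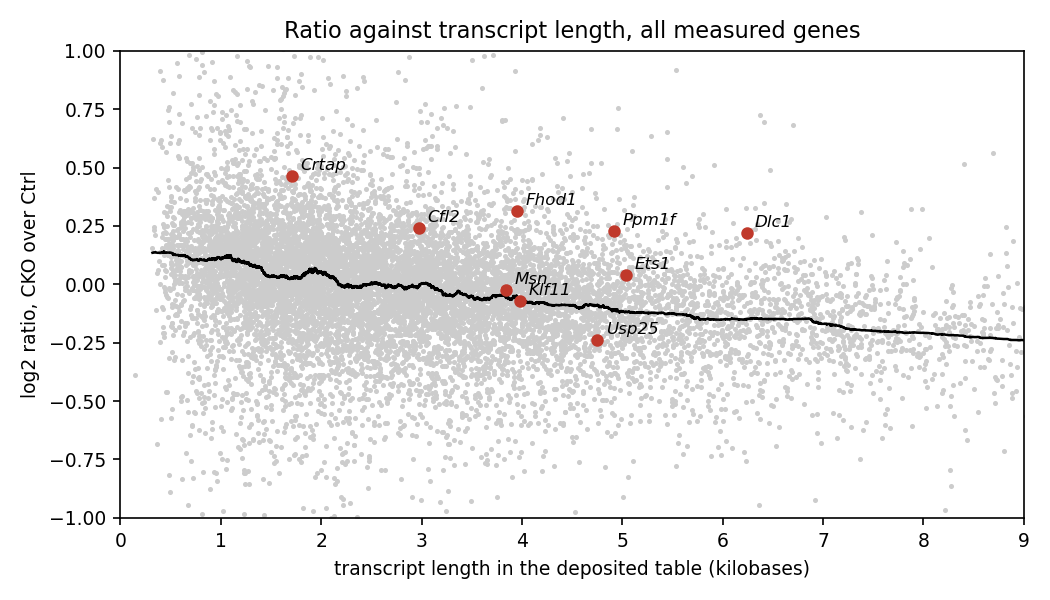
Log2 ratio, CKO over Ctrl, of all measured genes (grey) against transcript length in kilobases, with the running median of 500 genes (black line) and the 9 measured members (red). The line declines with length, and Crtap, Cfl2, Fhod1, Ppm1f, Dlc1 and Ets1 lie above it while Usp25 lies below; some genes fall outside the axes.

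The lists around these genes were chosen by role, with earlier results of these data known. Over all of them, 133 genes other than the members were measured. Of these 1 was higher (Myl9) and 3 lower (Fmnl2, P4ha1 and Klf3), and the median log2 ratio was -0.05. By the same rule 2.28% of all measured genes were higher and 3.03% lower. The list of the serum response factor gene Srf, its cofactors and genes of actomyosin stood on the side of CKO. There, 11 of 16 intervals lay above 0 and 3 below, with a median of 0.25, where 16.5% of all measured genes lay above and 23.7% below. Myl9, the regulatory light chain of smooth muscle myosin, was at 7.2 and 11.72 FPKM, the tropomyosin gene Tpm1 at 201.63 and 285.74, and Srf at 64.65 and 77.78. The cofactor genes Mkl1 and Mkl2 had log2 ratios of -0.07 and -0.22. Other lists, with measured members included, lay differently. Of 9 formins, 1 interval lay above 0 and 5 below, and of 17 WAVE and Arp2/3 genes 7 and 5. Of 20 Kruppel-like, Sp and TGF-beta feedback genes, 4 lay above and 10 below. The counts were 1 and 3 for 9 genes of PAK kinases and partners, and 3 and 5 for 13 collagen-modifying genes.

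The cells were luminal by their markers: Krt8 stood at 3871.08 and 4476.23 FPKM and Epcam at 1189.5 and 1232.98. Of the 8 luminal markers listed, 5 intervals lay above 0 and 3 below, where 16.5% of all measured genes lay above and 23.7% below. Several of these markers have very many reads, about 87691 and 92824 for Krt8, so that even small ratios exclude 0. Krt18 was counted as higher, at 6606.79 and 10398.4 FPKM, and the intervals below 0 were those of Prlr, Elf5 and Cldn4. Markers of basal myoepithelial cells, which are rich in actin and myosin, were higher in CKO for 6 of 7 measured, with Trp63 lower. By the same rule 2.28% of all measured genes were higher and 3.03% lower. The sum over the 8 listed basal markers was 153.27 FPKM in Ctrl and 281.22 in CKO. Immune markers summed to 25.18 and 44.98 FPKM over 7 genes, endothelial markers to 32.93 and 35.78 over 6, and fibroblast markers to 40.75 and 43.12 over 7. Most of the fibroblast sum was Dcn, at 25.57 and 30.74 FPKM, with an interval above 0. Col1a2, at 4.24 and 3.22 FPKM, had an interval below 0, as had Pdgfra and Lum, both below the minimum. The 4 measured fibroblast markers had a median log2 ratio of -0.06. All 4 measured immune markers had a log2 ratio above 0, with a median of 0.59, but the minimum favours such ratios here. C1qa (0.91 and 1.73 FPKM) and Csf1r (0.89 and 1.12) were under 1 FPKM in Ctrl and reached the minimum through CKO. Of the immune markers left out by it, Ptprc and Cd79a had log2 ratios of 0.04 and 0.06, and Cd3e -0.61. The intervals of C1qa (-0.08 to 2.15, 12 and 22 reads) and Csf1r (-0.27 to 0.96, 44 and 51 reads) include 0. The antigen presentation gene Cd74 was counted as higher, at 17.98 and 34.79 FPKM, and the lysozyme gene Lyz2 was at 4.42 and 6.57 (0.06 to 1.08 on the log2 scale). The pan-leukocyte gene Ptprc was at 0.21 and 0.23 FPKM, and Cd3e was listed at the floor in CKO. The part of these cells in the ratios of Cfl2, Fhod1, Dlc1, Myl9 or the other genes was not tested. In a bulk library, fewer cells of a type and less RNA per cell cannot be told apart. Neither microRNA was analysed here, so the deletion itself was not checked in these libraries.

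In the authors' deposited table, no member is called up or down. The lowest deposited false discovery rates among the 10 were 1.39e-07 for Usp25, 0.00301 for Fhod1, 0.00796 for Crtap and 0.0083 for Cfl2. Those of Ppm1f and Wasf3 in the authors' deposited table were 0.0612 and 0.122, and Msn had 0.724. These rates come from a comparison of the reads of 1 library with those of the other, so they speak of the libraries and not of the conditions.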

How the data were processed

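Bulk RNA-seq of 1 Ctrl and 1 CKO library was used. The submitters' processing notes name HISAT, Bowtie2, RSEM and mm10, without versions. The deposited expression values are FPKM by their arithmetic, since times kilobases they sum to 999609 and 999909; the header gives no unit. The deposited log2 fold change equals the log2 ratio of these columns. The deposited p-value and false discovery rate compare 1 library with the other. Reads were estimated as FPKM times kilobases times a depth fitted to the deposited p-values of 6005 genes, after 620 of 641 genes at the floor in Ctrl returned whole reads within 0.01. Intervals cover counting error only; PCR copies are not independent molecules. Ratios are log2 of FPKM plus 0.5, CKO over Ctrl. Python 3.11.15, scipy 1.17.1 and pandas 2.3.3 were used, and the interval was tested on simulated data. Named genes are all members, their listed closest relatives and list genes past 1.5-fold. A few others were chosen after their values were seen (Limk1, Tnks, Tnks2, Traf3, Tpm1, Srf, Mkl1, Mkl2 and single markers). Members and lists were chosen with earlier results of these data known. Alternatives covered the added constant, centring, length, fold, minimum and the read ratio implied by the deposited p-value. One of the lists around the members is not reported here.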

Additional observations from a re-analysis of the deposited data

How the results depend on the processing

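The ratios of Crtap, Fhod1, Cfl2, Ppm1f, Usp25 and Wasf3 kept their direction under every alternative that gave them a value, and the median of the members lay between 0.13 and 0.25 on the log2 scale in all settings. The count of members higher was 1 (Crtap) with a minimum of 0.32 on the log2 scale in place of 1.5-fold and 4 by the interval alone, against 0 by the rule used. The count of members lower was 1 by the interval alone (Usp25), and 1 with values not divided by length, where Wasf3 passed the minimum. Relative to genes of like length, an alternative added after the data were seen, Ets1 moved to 0.16 and Usp25 to -0.15. The intervals of Dlc1 and Ets1 then excluded 0. The ratio of Msn, whose interval includes 0, went from -0.03 to 0.03 there. The read ratio implied by the deposited p-value differed from the FPKM ratio by at most 0.09 for the members. No paired analysis was possible because there was 1 library per group, and for the same reason no library could be left out. Depth limits Wasf3 most, with 34 and 16 reads, then Crtap and Dlc1. The 3′ UTR used is the longest annotated one, which these cells may not all use; the union over transcripts gave the same 9 measured members with a match.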
